A study of Mus musculus with 25 samples.

Results

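The genes described are 10 components of the growth hormone, IGF1 and BCL6 axis in mouse liver: Ghr, Stat5a, Stat5b, Igf1, Igfals, Igfbp3, Cish, Socs2, Socs3 and Bcl6. They were chosen by symbol, for their known roles, with earlier results of these data known. All 10 were found among the 41388 gene identifiers of the 25 libraries and among the 14065 genes that passed the filter on low counts. The study asks how overexpression of NAMPT, an enzyme of NAD synthesis, acts on the liver with and without the NAD-dependent deacetylase SIRT1. All mice were males of the C57B/6J background with loxP-flanked Sirt1 alleles. Those labelled WT carried no Cre, and those labelled LKO carried a Cre driven by the albumin promoter, which is active in hepatocytes. Every mouse received an AAV8 virus by tail vein, either empty (EV) or with NAMPT behind the hepatocyte-specific thyroxine-binding globulin promoter. The age is given as 20 weeks and the study as 12 weeks long. The chow arm comprised 3 mice, all WT EV, and on Western diet (WD) 6 WT EV, 6 WT NAMPT, 5 LKO EV and 5 LKO NAMPT mice, each giving 1 library. No group combined chow with NAMPT or with LKO.

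Growth hormone binds its receptor on hepatocytes and, through the kinase JAK2, activates the transcription factors STAT5A and STAT5B. In liver this pathway drives the synthesis of IGF1 and of the proteins that carry it in blood, and it induces the SOCS family proteins that switch the receptor off again. In male rodents growth hormone arrives in pulses, and the pulses maintain genes that are higher in male than in female liver. BCL6 is a transcriptional repressor that can occupy STAT5 binding sites, and growth hormone is known to lower its expression in liver.

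Libraries held between 20166175 and 32937326 gene counts. The deposited labels give no batch, cage or hour of collection. In the WD groups mean Sirt1 ran from 8.58 to 8.86 CPM (the usual library-size scaling of counts, with TMM factors) in WT and from 8.57 to 9.82 CPM in the libraries labelled LKO, so the genotype rests on its label. The 6 hepatocyte markers together reached 44500 to 74600 CPM in every library, and 0 of 3 adipocyte markers passed the filter. Chow replicate 3 stood apart from the other chow mice in several of the genes described, and results for these genes that rest on it are also given without it. In bulk liver, fewer cells of a type and less RNA per cell cannot be told apart.

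Expression per base of transcript ordered the members in chow liver. On the RPKM scale (the same CPM divided by kilobases of exon) the mean levels were highest for Igf1, at 81.0 ± 2.69 (SD, n = 3), for Ghr, at 64.9 ± 12.9, and for Igfals, at 55.4 ± 3.90. Ghr and Igfals differed by less than the SD of Ghr. Stat5b followed at 15.8 ± 1.91 RPKM, Bcl6 at 10.1 ± 7.82 RPKM and Igfbp3 at 6.01 ± 2.13 RPKM, both others within the spread of Bcl6. The lowest were Stat5a at 2.51 ± 0.859, Socs3 at 2.05 ± 0.985, Socs2 at 1.11 ± 1.25 and Cish at 0.639 ± 0.863 RPKM, 4 genes whose neighbours in this order differed by less than their SD. In WD WT EV liver Ghr (59.4 ± 9.95 RPKM, n = 6) and Igf1 (54.7 ± 13.7 RPKM) were level within their SD, and Igfals was at 31.6 ± 14.4 RPKM. Igf1, Ghr and Igfals were thus the 3 highest members per length in both groups, and Cish, Socs2 and Socs3 were among the lowest 4.

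**Figure D1:**
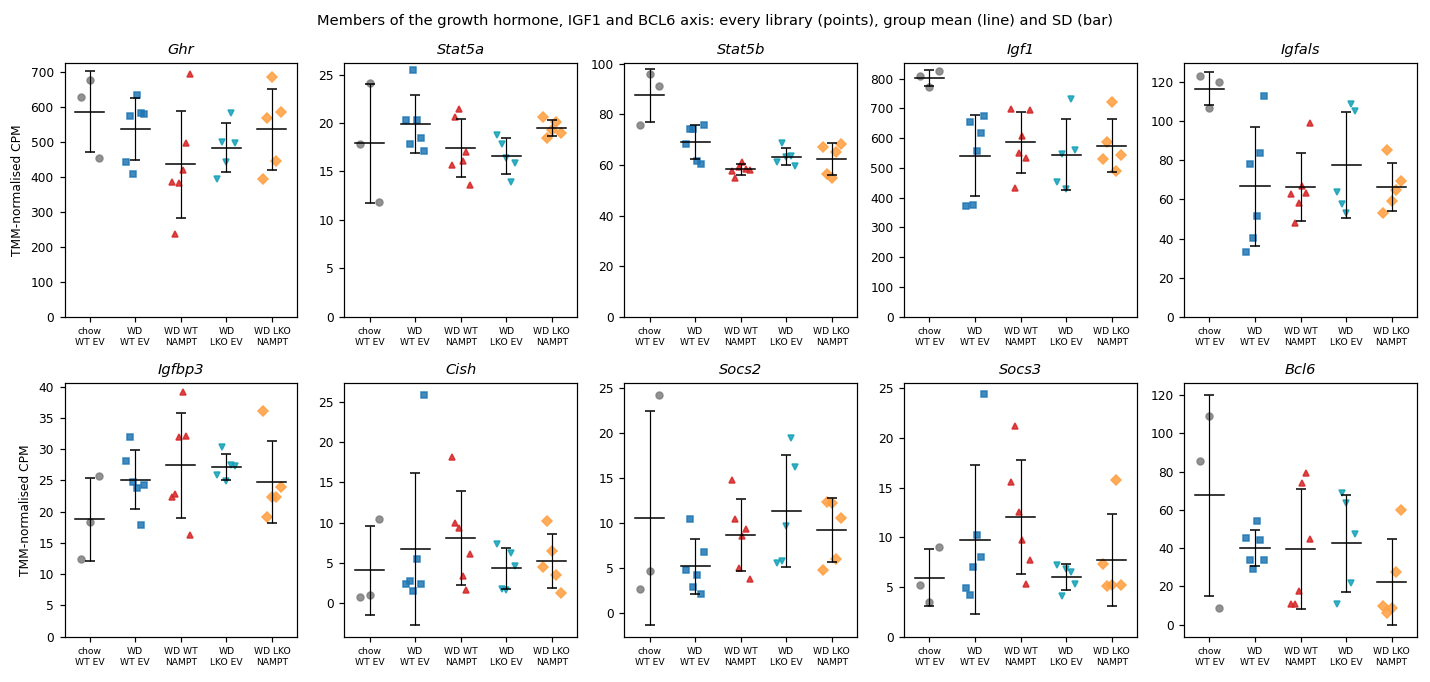
Each panel plots one gene, with the 5 groups on the x axis and TMM-normalised CPM on the y axis; points are single libraries in replicate order, lines the group means and bars the SD. Igf1 in the 3 chow mice lay between 773 and 825 CPM, above all 6 WD WT EV mice, whereas Bcl6, Cish and Socs2 spread widely inside most groups.

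Mice of the same group differed far more in some members than in others. The pooled within-group SD of log2(CPM + 0.5) was 1.2 for Bcl6 and 1.18 for Cish, larger than in 99.6% of all genes for each. For Socs2 it was 0.83, larger than in 98.4%, and for Socs3 0.67, larger than in 96.4%. At the other end, Stat5b had an SD of 0.12, larger than in 4.98% of genes, and Stat5a of 0.24, larger than in 46.5%. The remaining members lay between, with 0.29 for Igf1, 0.35 for both Ghr and Igfbp3 and 0.45 for Igfals, and the median of all genes was 0.25.

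**Figure D2:**
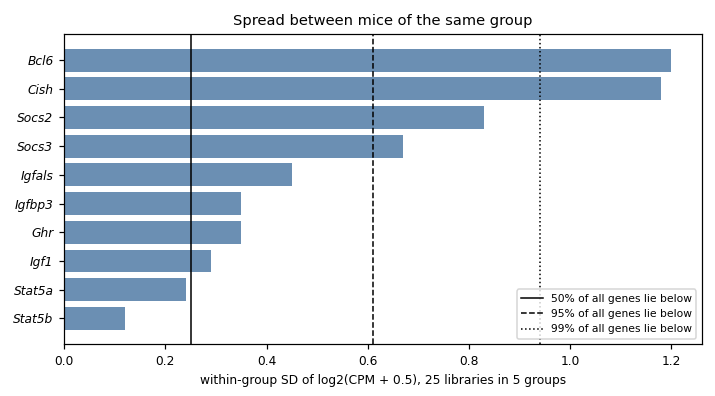
Bars give the within-group SD of log2(CPM + 0.5) for each member over 25 libraries in 5 groups, and vertical lines mark the values below which 50%, 95% and 99% of all genes lay. Bcl6 and Cish exceeded the 99% line at 0.94, and Stat5b lay at 0.12.

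Sequences around the transcription starts were examined because STAT5 and BCL6 both recognise the letters TTCNNNGAA, a site that reads the same on both strands. RefSeq windows of 300 bases (250 before and 50 after each start, build GRCm38.p6) were found for 9 of the 10 genes and not for Socs2. The motif was present in windows of 4 of these 9 genes, Cish, Socs3, Bcl6 and Igfals, and in 6 of their 15 windows. Among all 32851 windows 8.3% held it, and 9.55% of 27025 genes held it in any window. A match is a description of letters and not evidence of binding. The stretches below are printed 5′ to 3′ on the strand of the gene, with each match in capitals.
Cish, chr9:107296654-107296683, plus strand: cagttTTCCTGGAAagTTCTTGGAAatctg
Socs3, chr11:117969497-117969535, minus strand: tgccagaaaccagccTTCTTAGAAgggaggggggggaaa
Bcl6, first start, chr16:23988947-23988985, minus strand: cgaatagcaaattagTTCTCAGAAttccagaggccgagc
Bcl6, second start, chr16:23981348-23981466, minus strand: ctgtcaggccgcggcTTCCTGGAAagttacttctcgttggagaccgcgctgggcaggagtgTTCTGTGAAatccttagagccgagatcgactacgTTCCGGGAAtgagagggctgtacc
Igfals, first start, chr17:24877594-24877631, plus strand: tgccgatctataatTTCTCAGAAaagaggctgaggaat
Igfals, second start, chr17:24878158-24878196, plus strand: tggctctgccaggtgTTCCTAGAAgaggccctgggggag
The second start of Bcl6 carried 3 matches, and 0.0335% of all windows held 3 or more. In Cish the matches began 0 and 11 bases after the RefSeq start, and 0.457% of all windows held 2 or more.

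Western diet against chow was the comparison in which limma called members of the axis. Between WD WT EV and chow WT EV mice 4 of 10 members were called at an adjusted p of 0.05 or less (limma, Benjamini-Hochberg over all genes), against 22% of all genes tested. Igf1, Igfals and Stat5b were lower on Western diet, 3 members against 12.0% of genes in that direction, and Igfbp3 was higher, 1 member against 10.1%. An unadjusted p under 0.05 was reached by the same 4, against 35.1% of all genes. The libraries of both diets did not overlap for 2 of 10 members, Igf1 and Stat5b, against 16.1% of all genes without overlap.

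Igf1 (ENSMUSG00000020053, chr10:87858265-87937042, GRCm38) encodes the hormone that carries most of the growth-promoting action of growth hormone. Its level was 810, 773 and 825 CPM in the chow mice, and 373, 587 and 673 CPM as the lowest, median and highest of 6 WD WT EV mice. Every chow mouse was thus above every WD WT EV mouse. The means were 803 ± 26.6 CPM (SD, n = 3) and 541 ± 136 CPM (SD, n = 6), and the fitted log2 fold change was -0.56 ± 0.16 (SE, limma adjusted p 0.013). In the other WD groups Igf1 had means of 585 ± 103 CPM with NAMPT in WT, 545 ± 119 CPM in LKO EV and 574 ± 89.3 CPM in LKO NAMPT.

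Igfals (ENSMUSG00000046070, chr17:24878770-24882008) encodes the acid-labile subunit, which holds IGF1 and its binding protein in a long-lived complex in blood. The chow mice had 123, 107 and 120 CPM, and the WD WT EV mice had a lowest value of 33.0, a median of 65.0 and a highest value of 113 CPM. Only replicate 8 of the WD WT EV mice reached into the chow range. Means of 117 ± 8.23 and 66.7 ± 30.4 CPM gave a log2 fold change of -0.88 ± 0.25 (SE, limma adjusted p 0.0123).

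Igfbp3 (ENSMUSG00000020427, chr11:7206086-7213923) encodes the main IGF-binding protein of that complex. It was measured at 12.4, 18.3 and 25.7 CPM in the chow mice and between 17.9 and 31.9 CPM, with a median of 24.5, in WD WT EV mice, so the groups overlapped. The means were 18.8 CPM in chow and 25.1 CPM in WD WT EV mice. The log2 fold change was 0.64 ± 0.19 (SE, limma adjusted p 0.0191), opposite in sign to Igf1 and Igfals. The call was lost without chow replicate 1, the mouse with 12.4 CPM (0.24, limma adjusted p 0.609), and without chow replicate 2 (0.53, 0.292). It was also lost without WD WT EV replicate 2, the mouse with 31.9 CPM (0.52, limma adjusted p 0.0744). EdgeR (0.42, adjusted p 0.296) and DESeq2 (0.42, adjusted p 0.271) did not call it. Nor did limma without sample weights (0.46, adjusted p 0.274), with 2 surrogate variables (0.44, 0.16) or without the filter (0.59, 0.0995).

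Stat5b (ENSMUSG00000020919, chr11:100780731-100850724) encodes the STAT5 form on which male liver gene expression depends. The chow mice had 75.6, 95.8 and 91.2 CPM and the WD WT EV mice between 60.4 and 75.6 CPM, with a median of 71.2. The groups met at 75.6 CPM without overlapping. Its means were 87.5 ± 10.6 and 69.0 ± 6.84 CPM, a log2 fold change of -0.33 ± 0.08 (SE, limma adjusted p 0.00638). Stat5a (ENSMUSG00000004043, chr11:100859351-100885169), which shares 72 exonic bases with Stat3 on the other strand, had means of 17.9 ± 6.12 CPM in chow and 19.9 ± 3.05 CPM in WD WT EV liver and was not called (adjusted p 0.948).

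The other members were not called between diets, and in 3 of them chow replicate 3 held a value far from its group. Bcl6 was at 85.4, 109 and 8.52 CPM in the chow mice, while the WD WT EV mice ran from 29.3 to 54.1 CPM with a median of 39.1. Its log2 fold change was -0.92 ± 0.64 (SE, limma adjusted p 0.317) with all libraries and -1.32 without chow replicate 3, but 0.39 without replicate 1 and 0.52 without replicate 2. Cish was at 0.744, 1.07 and 10.5 CPM in chow and between 1.51 and 25.9 CPM in WD WT EV mice, a log2 fold change of 1.46 ± 0.98 (SE, limma adjusted p 0.299), with 1.97 without chow replicate 3 and -0.03 without replicate 1. Socs2 was at 2.69, 4.72 and 24.3 CPM in chow and at 2.07 to 10.5 CPM in WD WT EV mice, and the 95% interval of its log2 fold change was -0.95 to 1.27 (limma adjusted p 0.865), with values of 0.59 without chow replicate 3 and -1.09 without replicate 1. The same chow mouse was therefore the lowest of its group in Bcl6 and the highest in Cish and Socs2. Socs3 (log2 fold change 0.60 ± 0.43, SE, limma adjusted p 0.334) and Ghr (-0.23 ± 0.16, SE, limma adjusted p 0.298) did not pass the threshold either.

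The 4 calls between diets depended on the 3 chow mice and on the test. Without chow replicate 2 the number called was 0 and without replicate 1 it was 1, whereas without replicate 3 it was 4. The size of the falls in Igf1 and Igfals did not depend on these mice, with log2 fold changes of -0.57 and -0.88 without replicate 1 and of -0.61 and -0.97 without replicate 2. The edgeR quasi-likelihood test called 1 member and DESeq2 called 2, and Stat5b was no longer called with the clock-gene score as covariate (log2 fold change -0.19, limma adjusted p 0.274). That score, higher where Dbp and the Per genes are high and Arntl is low, ran from -4.17 to -2.64 in chow and from -1.58 to 1.69 in WD WT EV mice. The groups did not overlap in it, so hour of the day and diet cannot be told apart. Of the hepatocyte markers 2 of 6 were lower on Western diet, with a summed level of 62200 to 74600 CPM in chow and 49900 to 66400 CPM in WD WT EV mice. Of the 7 Kupffer cell and macrophage markers 1 was called higher (0 by edgeR and DESeq2, and 0 without chow replicate 1 or 2 or WD WT EV replicate 1 or 2), and they summed to 195 to 230 CPM in chow and 191 to 309 CPM in WD WT EV mice. Of the 7 stellate cell markers 2 were called higher, with sums of 342 to 378 and 317 to 509 CPM. Of the endothelial markers 1 of 6 was called higher and 1 lower, and of the T and B cell markers 1 of 4 lower, with 0 called by edgeR and 1 and 0 by DESeq2. The part of these cells in the values of Igf1, Igfals or Igfbp3 was not tested.

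**Figure D3:**
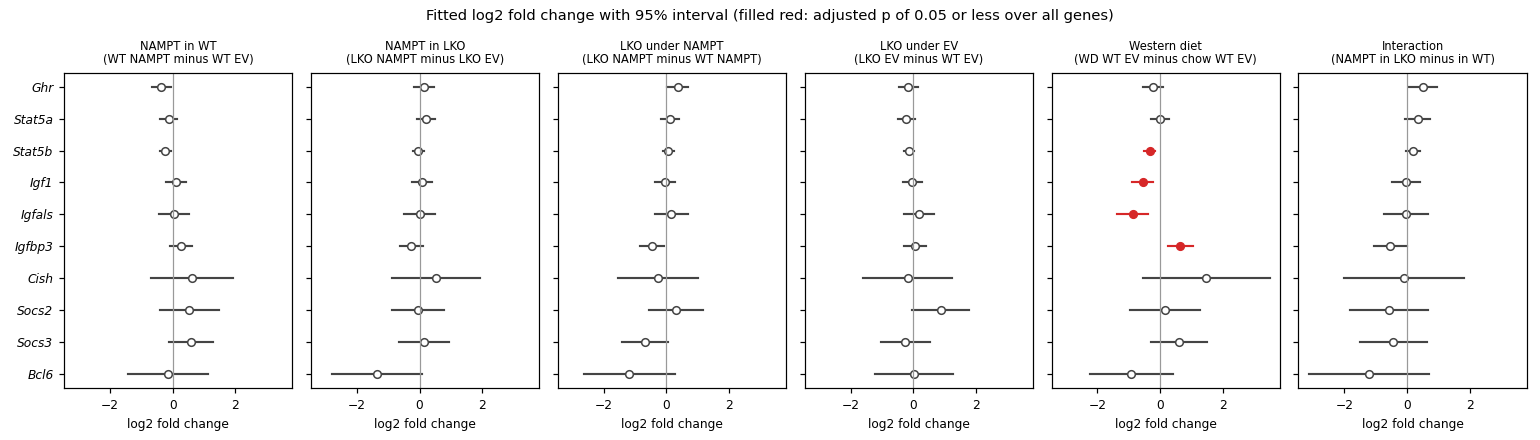
Fitted log2 fold changes (points) with 95% intervals (lines) of the 10 members, one panel per comparison, with the gene on the y axis; filled red points passed an adjusted p of 0.05 over all genes. Filled points appear in the Western diet panel only, for Igf1, Igfals, Stat5b and Igfbp3, and the intervals of Bcl6 and Cish are the widest.

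NAMPT in WT mice on Western diet was the next comparison. Limma called 0 of 10 members, against 13.4% of all genes, and 2 of 10 had an unadjusted p under 0.05, against 30.3% of all genes. The edgeR quasi-likelihood test called 0 members and DESeq2 called 1. The EV and NAMPT libraries overlapped for every member, while 0.960% of all genes did not overlap. The share of members at an unadjusted p under 0.05 was thus below that of all genes. The genes were Ghr and Stat5b, and both had lower means with NAMPT.

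Ghr (ENSMUSG00000055737, chr15:3317760-3583492) encodes the growth hormone receptor. In WD WT EV mice it ran from 410 to 636 CPM with a median of 579, and in WD WT NAMPT mice from 238 to 696 CPM with a median of 403. The highest value of both groups was in a NAMPT mouse, replicate 6, and the lowest in another, replicate 2. The means were 538 ± 90.1 and 437 ± 152 CPM (SD, n = 6 per group), with a log2 fold change of -0.37 ± 0.15 (SE, limma adjusted p 0.0946). Without NAMPT replicate 6 it was -0.44 and called (adjusted p 0.0312). Leaving out NAMPT replicate 5 (adjusted p 0.0423) or EV replicate 4 (0.0368) had the same effect, as did the clock score as covariate (-0.48, adjusted p 0.0441). It passed in these 4 of 22 alternatives, and with 2 surrogate variables it was 0.07 (adjusted p 0.638).

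Stat5b was at 55.0 to 61.2 CPM in WD WT NAMPT mice, with a median of 58.0, against 60.4 to 75.6 CPM in WD WT EV mice. The groups overlapped through 1 mouse of each, NAMPT replicate 4 at 61.2 CPM and EV replicate 7 at 60.4 CPM. Its means were 58.2 ± 2.05 and 69.0 ± 6.84 CPM, a log2 fold change of -0.23 ± 0.08 (SE, limma adjusted p 0.0525, 0.0327 with DESeq2). It passed the threshold in 3 of 22 alternatives, DESeq2 and the fits without EV replicate 7 (adjusted p 0.0399) or NAMPT replicate 6 (0.0489). With library size only as the scaling it was -0.08 (adjusted p 0.549), and with the clock score -0.14 (0.274).

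None of the other members was called. Igf1 ranged from 431 to 699 CPM with NAMPT and from 373 to 673 CPM with EV, and the 95% interval of its log2 fold change ran from -0.21 to 0.41. For Igfals the interval was -0.45 to 0.51. Socs3 had a log2 fold change of 0.59 ± 0.34 (SE, limma adjusted p 0.248), Socs2 of 0.52 ± 0.46 (0.461) and Igfbp3 of 0.26 ± 0.17 (0.311). Bcl6 was at 10.6 to 79.2 CPM with NAMPT, with a median of 31.2, around the EV range of 29.3 to 54.1 CPM. The 95% interval of its log2 fold change ran from -1.42 to 1.14. Cish ran from 1.68 to 18.1 CPM with NAMPT and from 1.51 to 25.9 CPM with EV (interval -0.69 to 1.92), and for Stat5a the interval was -0.39 to 0.15. Macrophage markers moved in this comparison, with 4 of 7 called higher and a summed level of 215 to 511 CPM with NAMPT against 191 to 309 CPM with EV. EdgeR and DESeq2 also called 4 each, and limma 0 without NAMPT replicate 3. Stellate cell markers did too, with 4 of 7 called higher (1 by edgeR, 2 by DESeq2, 0 by limma without NAMPT replicate 3) and 332 to 773 against 317 to 509 CPM. Of the neutrophil markers 1 of 4 tested was called higher, and of the endothelial markers 1 of 6 was higher and 1 lower. EdgeR called 0 of both kinds, and DESeq2 called 1 neutrophil and 0 endothelial markers. Limma called 0 neutrophil markers without EV replicate 2, 6, 7 or 8 or NAMPT replicate 1, 2, 3 or 4. It called 0 endothelial markers without EV replicate 2 or NAMPT replicate 3. The part of these cells in the values above was not tested. Of 14 clock genes 4 were called lower and 0 higher, near the 13.4% of all genes called (2 by edgeR, 2 by DESeq2, 0 by limma without NAMPT replicate 3). The clock-gene score ran from -0.1 to 2.18 with NAMPT and from -1.58 to 1.69 with EV. Values with this score as covariate are given above for Ghr and Stat5b.

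Within the LKO-labelled mice the NAMPT vector gave 0 of 10 members called by limma, against 0.00711% of all genes. No member had an unadjusted p under 0.05, against 9.63% of all genes, and edgeR and DESeq2 called 0 each. The groups overlapped for all 10, against 1.15% of all genes without overlap. Bcl6 (ENSMUSG00000022508, chr16:23965052-23988852) had the largest difference. LKO EV mice had 11.1, 68.6, 63.4, 22 and 47.5 CPM, and LKO NAMPT mice 9.81, 6.25, 8.55, 27.3 and 60.0 CPM. The NAMPT group thus held 3 mice under 10 CPM and 1 mouse within the upper range of the EV group. Means of 42.5 ± 25.2 and 22.4 ± 22.6 CPM (SD, n = 5 per group) gave a log2 fold change of -1.35 ± 0.69 (SE, limma adjusted p 0.545). It was -1.89 without LKO NAMPT replicate 5 and -0.62 without LKO NAMPT replicate 2. Among the others, Igfbp3 (-0.26 ± 0.18, SE, limma adjusted p 0.677) and Stat5a (0.22 ± 0.14, SE, limma adjusted p 0.647) exceeded their SE. The 95% intervals were -0.17 to 0.47 for Ghr, -0.24 to 0.40 for Igf1, -0.50 to 0.50 for Igfals and -0.21 to 0.13 for Stat5b. Among the inhibitors they were -0.87 to 0.77 for Socs2, -0.65 to 0.95 for Socs3 and -0.87 to 1.92 for Cish.

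LKO NAMPT against WT NAMPT gave 0 of 10 members called by limma, edgeR and DESeq2, against 7.96% of all genes with limma. At an unadjusted p under 0.05 there were 2 members, against 28.6% of all genes. No member was without overlap, against 1.39% of all genes. Ghr was at 396, 568, 687, 445 and 588 CPM in LKO NAMPT mice, inside the WT NAMPT range of 238 to 696 CPM, and its log2 fold change was 0.36 ± 0.16 (SE, limma adjusted p 0.138). Igfbp3 was at 36.1, 19.1, 22.4, 22.3 and 24 CPM in LKO NAMPT mice against 16.3 to 39.2 CPM in WT NAMPT mice, with a log2 fold change of -0.46 ± 0.18 (SE, limma adjusted p 0.1). Without LKO NAMPT replicate 1, the mouse with 36.1 CPM, it was -0.55 and called (adjusted p 0.0402). Bcl6 (-1.19 ± 0.70, SE, limma adjusted p 0.267) and Socs3 (-0.69 ± 0.36, SE, limma adjusted p 0.201) stayed above the threshold, and without LKO NAMPT replicate 2 they were -0.46 and -0.35. For Igf1 the 95% interval was -0.38 to 0.28, for Igfals -0.35 to 0.68, for Stat5a -0.18 to 0.39 and for Stat5b -0.11 to 0.24. The intervals of Socs2 (-0.56 to 1.17) and Cish (-1.54 to 1.02) were wider. Cell-type markers were called in this comparison by limma only, and edgeR and DESeq2 called 0 of those that follow. Of the 7 macrophage markers 2 were called lower and all 7 had negative values, with sums of 239 to 389 CPM in LKO NAMPT against 215 to 511 CPM in WT NAMPT mice. None was called without WT NAMPT replicate 2 or 3 or LKO NAMPT replicate 2, 3 or 5. The 7 stellate cell markers had negative values with 0 called, and sums of 378 to 611 against 332 to 773 CPM. Of the hepatocyte markers 1 of 6 and of the cholangiocyte markers 1 of 4 were called lower. Their part in the values of Igfbp3 or Ghr was not tested.

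Without NAMPT, the LKO EV and WT EV mice differed in 0 of 10 members by limma, edgeR and DESeq2, against 0.00711% of all genes with limma, and 0 with an unadjusted p under 0.05, against 6.33% of all genes. The groups overlapped for all 10 members, and 0.590% of all genes were without overlap. Socs2 (ENSMUSG00000020027, chr10:95385362-95417180), a feedback inhibitor of the growth hormone receptor, differed most. It had 5.55, 5.82, 9.64, 19.5 and 16.2 CPM in LKO EV mice and 2.07, 4.49 and 10.5 CPM as the lowest, median and highest of the WT EV mice. The LKO EV values lay above the WT EV median and overlapped its upper range. Means of 11.4 ± 6.28 and 5.22 ± 3.08 CPM gave a log2 fold change of 0.88 ± 0.44 (SE, limma adjusted p 0.801). Stat5a (-0.23 ± 0.13), Ghr (-0.16 ± 0.14) and Stat5b (-0.13 ± 0.08) had limma adjusted p-values from 0.858 to 0.962. The 95% intervals of Igf1 (-0.32 to 0.27), Igfals (-0.28 to 0.66), Igfbp3 (-0.28 to 0.42), Socs3 (-1.03 to 0.52), Cish (-1.59 to 1.24) and Bcl6 (-1.22 to 1.27) included 0.

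Whether the NAMPT effect differed between genotypes was tested by the interaction, the log2 fold change in LKO minus that in WT. It called 0 of 10 members by limma, edgeR and DESeq2, against 0.00711% of all genes with limma. An unadjusted p under 0.05 was reached by 2 members, against 21.2% of all genes. For Ghr the NAMPT effect was -0.37 in WT, and in LKO its 95% interval ran from -0.17 to 0.47. The interaction was 0.51 ± 0.21 (SE, limma adjusted p 0.175), 0.23 with the replicate block and 0.06 with 2 surrogate variables. For Igfbp3 it was -0.53 ± 0.25 (SE, limma adjusted p 0.226). Bcl6 (-1.22 ± 0.93), Stat5a (0.34 ± 0.19) and Stat5b (0.20 ± 0.11) also exceeded their SE, with adjusted p-values from 0.306 to 0.455. Without LKO NAMPT replicate 2 the Bcl6 interaction was -0.48.

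Taken over all groups together, Bcl6 and Cish deviated from their group means in opposite directions. Cish (ENSMUSG00000032578, chr9:107296026-107302784) encodes a SOCS family protein induced by STAT5, and 740 of its exonic bases overlap Gm17040 and Gm17041 on the other strand. The mouse with the highest Bcl6, chow replicate 2 at 109 CPM, had 1.07 CPM of Cish. The mouse with the lowest Bcl6, LKO NAMPT replicate 2 at 6.25 CPM, had 10.2 CPM of Cish. Over the deviations of log2(CPM + 0.5) from group means in 25 libraries, Pearson's r was -0.76 (permutation p 2e-05, adjusted p 0.00018 over the 9 relations of Bcl6) and Spearman's rho was -0.81 (permutation p 3e-05, adjusted p 0.00027). In 21 of 25 libraries Bcl6 and Cish deviated to opposite sides. The exceptions were LKO EV replicate 5 and WD WT EV replicates 2, 4 and 6. The relation was thus not evident among the WD WT EV mice, and it was not tested in single groups. Without chow replicate 3 and LKO EV replicate 1, the mice farthest from the median of Bcl6, r was -0.71. The group means of all libraries were kept there, so the pull of these mice on their group means remained. The values of 1 library share its sequencing depth and its hour of collection, and the part of either was not tested. The Cish level is low, at 0.744 to 25.9 CPM.

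The other relations of Bcl6 did not pass the adjustment. For Ghr r was 0.46 and rho 0.42 (permutation p 0.0511 and 0.0681, adjusted p 0.16 and 0.204). Socs3 (ENSMUSG00000053113, chr11:117966079-117970047), which cytokines also induce, gave r of -0.40 and rho of -0.43 (permutation p 0.0533 and 0.046, adjusted p 0.16 and 0.204). Socs2 gave r of -0.39 and rho of -0.31 (permutation p 0.152 and 0.189, adjusted p 0.343 and 0.42). For the hormone itself, Igf1, r was -0.07 and rho -0.10 (permutation p 0.716 and 0.596, adjusted p 0.917 and 0.751). Mice with low Bcl6 therefore did not differ detectably in Igf1.

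**Figure D4:**
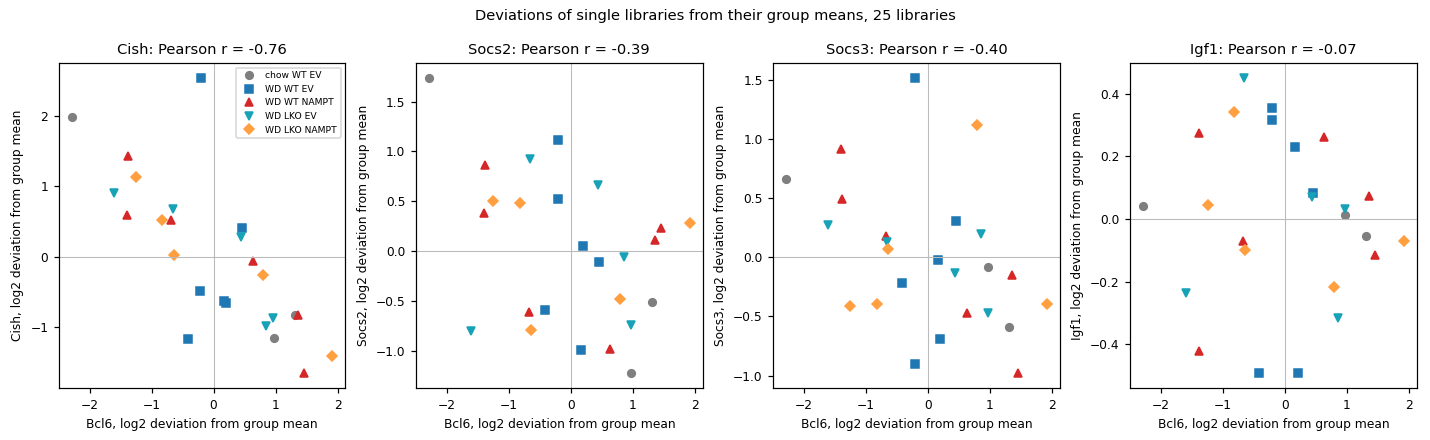
Each point is 1 of 25 libraries, with the deviation of Bcl6 from its group mean on the x axis and that of Cish, Socs2, Socs3 or Igf1 on the y axis (log2 scale, groups by colour and shape). The Cish points fall along a descending line with r of -0.76, whereas the Igf1 points show none (r of -0.07).

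Among all 45 pairs of members, a set chosen after the data were seen, 8 passed the adjustment over 45 by Pearson's r. Values of r without the 2 farthest mice keep the group means of all libraries, and thus the pull of those mice on them. The values of a library share its depth, its scaling, its hour of collection and its mix of cells, and the part of these was not tested for any pair. Pairs without Bcl6 were computed with TMM scaling only. Ghr, Igf1 and Igfals varied together. For Igf1 with Igfals r was 0.79 and rho 0.71 (permutation p 0.00015 and 0.00094, adjusted p 0.00153 and 0.0103), and r was 0.70 without the 2 farthest mice. For Ghr with Igf1 r was 0.68 and rho 0.65 (permutation p 0.00017 and 0.00114, adjusted p 0.00153 and 0.0103), and r was 0.64 without the 2 farthest mice. For Ghr these were WT NAMPT replicates 2 and 6, with TMM factors of 1.294 and 0.922. For Ghr with Igfals r was 0.57 and rho 0.56 (permutation p 0.0014 and 0.00533, adjusted p 0.0105 and 0.0343), and r was 0.48 without the 2 farthest mice.

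Stat5a ran against the hormone and its carrier. With Igf1 its r was -0.59 and rho -0.72 (permutation p 3e-05 and 2e-05, adjusted p 0.000675 and 0.00045), and with Igfals r was -0.58 and rho -0.75 (permutation p 5e-05 and 2e-05, adjusted p 0.00075 and 0.00045). Without the 2 farthest mice r was -0.56 and -0.62. A pair of SOCS family genes varied together, Socs3 with Cish, at r of 0.65 and rho of 0.58 (permutation p 0.00352 and 0.00769, adjusted p 0.0226 and 0.0433; r of 0.62 without the 2 farthest mice). Igfbp3 and Stat5b gave r of 0.58 and rho of 0.59 (permutation p 0.00407 and 0.0032, adjusted p 0.0229 and 0.024; r of 0.61 without the 2 farthest mice).

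The genes whose levels over all 25 libraries were most like each member were picked by Pearson's r among 12548 genes, as a description in which group differences count too. Ghr was closest to Phyh and Cat, enzymes of the peroxisome, at r of 0.95 for both. Igf1 was closest to Cps1, the entry enzyme of the urea cycle, at 0.90, and Igfals to Cyp4f14 at 0.91. Stat5b was closest to Gldc, of the glycine cleavage system, at 0.85, and Igfbp3 to the collagen gene Col14a1 at 0.85. Stat5a was closest to Capn2 at 0.81, Cish to Phlda1 at 0.79, Socs3 to Calhm6 at 0.78 and Socs2 to Phf8 at 0.73. Bcl6 had the lowest best match, 0.69 with Mars and with Gspt1.

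Other genes of the pathway were counted from lists chosen by known role, with earlier results of these data known. Among 26 partners of growth hormone and IGF signalling that passed the filter, 3 rose and 4 fell on Western diet, 7 of 26 against 22% of all genes called, with a median log2 fold change of 0.04 against 0.00 for all genes. The falls were led by Irs2, an adaptor of the insulin and IGF1 receptors (-1.12 ± 0.20, SE, limma adjusted p 0.00026), and Igfbp2 (-0.94 ± 0.25, adjusted p 0.00894). Prlr, the prolactin receptor, fell by 0.67 and Insr, the insulin receptor, by 0.25 on the log2 scale. EdgeR called 3 and DESeq2 called 6 of the 26, and without chow replicate 2 limma called 1. Socs5 and Igfbp7 rose by 0.51 and 0.40. Lepr, the leptin receptor, was fitted at 0.95 ± 0.34 (SE, limma adjusted p 0.0456) with chow replicate 3, its highest chow mouse at 10.2 CPM, carrying a low weight of 0.61. The means were 5.53 ± 4.06 CPM in chow and 7.26 ± 1.73 CPM in WD WT EV mice, whose range of 5.32 to 10.3 CPM held that mouse. With NAMPT in WT mice 3 partners were called higher and 1 lower. This was 4 of 26, against 13.4% of all genes, and 0 without NAMPT replicate 3. Those raised were Socs1 (1.05 ± 0.34, SE, limma adjusted p 0.0431) and the phosphatases Ptpn6 (0.57 ± 0.12, adjusted p 0.00851) and Ptpn1 (0.34 ± 0.11, adjusted p 0.0424), and the one lowered was Insr (-0.23 ± 0.08, adjusted p 0.042). The macrophage markers that moved in the same comparison are given above, and their part was not tested. Socs1 is a rare transcript, at 0.289 to 1.29 CPM in the WT EV mice. The edgeR quasi-likelihood test and DESeq2 each called 1 of these 26. Socs1 (-1.31) and Insr (0.27) were also called in LKO NAMPT against WT NAMPT, which shares the WT NAMPT libraries, and there edgeR and DESeq2 called 0 partners. These were 2 of 26, against 7.96% of all genes called. Limma called 0 without WT NAMPT replicate 1, 2 or 3 or LKO NAMPT replicate 2, 3 or 5, and 7 without LKO NAMPT replicate 1.

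Male-biased liver genes, which pulsed growth hormone and STAT5B maintain, were called in 1 direction between diets. Of 18 tested 6 fell and 0 rose, against 12.0% of all genes called lower, and the median log2 fold change was -0.96 against 0.00 for all genes. Without chow replicate 1 or 2 the number called was 2. Selenbp2 fell most (-3.28 ± 0.69, SE, limma adjusted p 0.00146), then Cyp7b1, an oxysterol hydroxylase (-1.90 ± 0.52, adjusted p 0.0103), Elovl3, a fatty acid elongase (-1.48 ± 0.48, adjusted p 0.028), and Gstp1 (-1.46 ± 0.21, adjusted p 3.54e-05). EdgeR and DESeq2 called 2 of 18 each. Of 14 clock genes 6 were called higher and 4 lower between the diets, against 22% of all genes called. EdgeR called 9 and DESeq2 10 of the clock genes, and limma 1 without chow replicate 2. The clock scores of the diets did not overlap, so hour of the day and diet cannot be told apart for the male-biased genes either. With NAMPT in WT mice 3 of 18 fell and 0 rose, near the 13.4% of all genes called, with a median of -0.84. Of the macrophage and of the stellate cell markers 4 of 7 were called higher in that comparison, and their part was not tested. Without EV replicate 2 or NAMPT replicate 3 the number called was 0, and without EV replicate 1 it was 7. These were Susd4 (-1.81 ± 0.55, SE, limma adjusted p 0.0321), Elovl3 (-1.66 ± 0.42, adjusted p 0.0155) and Mup3 (-1.16 ± 0.38, adjusted p 0.0414), and edgeR and DESeq2 called 0. Summed over the list, WT NAMPT mice ranged from 5610 to 27100 CPM and WT EV mice from 5430 to 16500 CPM. In LKO NAMPT against WT NAMPT mice Gstp1 and Gstp2 were called lower and 0 of 18 higher, against 7.96% of all genes called, with 2 called by edgeR and 3 by DESeq2, while the list median was 0.37, with 13 genes higher and 5 lower. The LKO NAMPT sums ran from 4450 to 11500 CPM, with a median of 10700 against 7650 CPM in WT NAMPT mice, and without LKO NAMPT replicate 2 or 5 the number called was 0. In LKO EV against WT EV limma, edgeR and DESeq2 called 0 of 18, although 8 had an unadjusted p under 0.05, against 6.33% of all genes, and the median was -0.57. Mup, Gstp, Cyp2b, Cyp3a and Saa genes have near-identical relatives, and how their reads were shared is uncertain.

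Female-biased liver genes moved both ways on Western diet, 4 of 19 rising and 5 falling, against 10.1% and 12.0% of all genes, with a median of 0.38, and 5 called in all without chow replicate 1 or 2. Among those called higher, Sult1e1, the estrogen sulfotransferase, and Hao2 (limma adjusted p 0.0403 and 0.0234) were near the limit of detection. Their group means were 0.0789 and 0.0526 CPM in chow and 0.705 and 0.473 CPM in WD WT EV mice, with 0 as the chow median of both, so no fold is given. Cyp2b9 had the largest fitted value and was not called (5.10 ± 2.54, SE, limma adjusted p 0.154). The falls were led by Cyp2b10 (-2.74 ± 0.34, adjusted p 5.23e-06) and Cyp3a41a (-2.24 ± 0.24, adjusted p 5.63e-07). With NAMPT in WT mice limma called 0 of 19, with 4 at an unadjusted p under 0.05, against 30.3% of all genes, 1 called by edgeR and 2 by DESeq2. LKO NAMPT mice had higher Cyp2b9 (4.07 ± 1.21, SE, limma adjusted p 0.0414) and Cyp4a14 (2.14 ± 0.60, adjusted p 0.0336) than WT NAMPT mice. These were 2 of 19, near the 7.96% of all genes called, with 2 called by edgeR and 3 by DESeq2. Summed over the 19 genes, LKO NAMPT mice had 396 to 1130 CPM and lay above the 101 to 252 CPM of WT NAMPT mice. The WD EV groups lay between 107 and 570 CPM and the chow mice between 151 and 878 CPM. Cyp4a14 and Cyp2b9, at means of 352 and 86.7 CPM in LKO NAMPT mice, made up most of that sum, and the median log2 fold change of the list was 0.20, with 12 genes higher and 7 lower. Without WT NAMPT replicate 2 or 3, or LKO NAMPT replicate 2, 3 or 5, the number called was 0. In LKO EV against WT EV limma and edgeR called 0 of 19 and DESeq2 called 1, with 8 at an unadjusted p under 0.05, against 6.33% of all genes, and a median of 0.31. On Western diet these genes had no common direction.

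**Figure D5:**
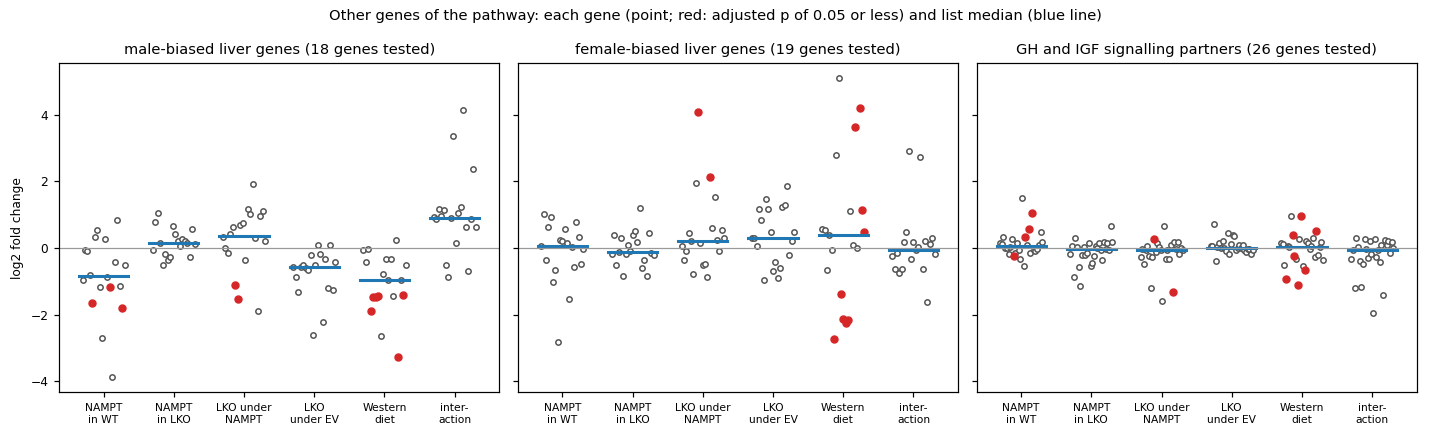
Points are log2 fold changes of single genes in 3 lists, in 6 comparisons along the x axis, with called genes in red and the list median as a blue line. The medians of male-biased genes are -0.96 for Western diet, -0.84 for NAMPT in WT and -0.57 for LKO under EV. They are 0.16 for NAMPT in LKO, 0.37 for LKO under NAMPT and 0.92 for the interaction. Female-biased genes are called on both sides of 0 on Western diet.

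Of 7 BCL6 corepressors, 1 was called on Western diet, Bcor (-0.45 ± 0.11, SE, limma adjusted p 0.00528), and 1 in LKO NAMPT against WT NAMPT, Tbl1xr1 (0.30 ± 0.08, adjusted p 0.0347). These counts stand against 22% and 7.96% of all genes called, and edgeR called neither, while DESeq2 called 0 and 1. Limma called 0 corepressors on Western diet without chow replicate 1 or 2. In the other comparison it called 0 without WT NAMPT replicate 2, 3 or 4 or LKO NAMPT replicate 2, 3 or 5. Signalling through gp130 and STAT3, which also induces Socs3, was represented by 18 genes. On Western diet 4 rose and 4 fell, against 22% of all genes called, led by Lcn2 (3.7 ± 1.14, SE, limma adjusted p 0.0222), Saa2 (2.92 ± 0.72, adjusted p 0.00524) and Orm3 (2.69 ± 0.54, adjusted p 0.00106), with Lifr lower (-1.27 ± 0.22, adjusted p 0.000308). EdgeR called 4 and DESeq2 10, and limma called 5 without chow replicate 3 and 1 without replicate 2. With NAMPT in WT 5 of these 18 genes were called higher and 0 lower, against 13.4% of all genes called, among them Saa3 (1.57 ± 0.46, adjusted p 0.0281) and Il1rn (1.42 ± 0.48, adjusted p 0.0482). EdgeR called 0 and DESeq2 called 1 of the 18, and limma called 0 without EV replicate 2 or 6 or without NAMPT replicate 1, 2 or 3. Macrophage and neutrophil markers moved in this comparison too, with 4 of 7 and 1 of 4 called higher, and their part was not tested. Socs3 itself was not called there.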

How the data were processed

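Liver RNA of 25 male mice was sequenced as poly-A selected, single-end libraries. Per the submitters' processing notes, the authors aligned reads with STAR 2.5.1a to GRCm38 and counted them per Ensembl gene with featureCounts 1.4.6-p5. The study's methods name other versions of both tools. Strand use is not given in the sources used here. The deposited files hold raw counts beside CPM and RPKM of the authors, which could be recomputed here from the counts. The titles give the vector insert as NAMPT and were followed, although 1 protocol text gives SIRT1.

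Genes with more than 1 CPM in at least 2 libraries were kept, leaving out 4 ribosomal RNA genes. Counts were scaled by TMM (edgeR 4.0.16) and fitted with voomWithQualityWeights (limma 3.58.1, R 4.3.3), all libraries together, 1 mean per group. P-values were adjusted over all genes by Benjamini-Hochberg, and genes at 0.05 or less were called. Libraries of a group are labelled as separate samples, and p-values measure the spread between them. Sample weights of the 3 chow libraries were 1.8, 2.5 and 0.61. Where a log2 fold change of a member was smaller than its SE with all libraries, its interval, level or p is printed in its place. Relations within groups used deviations from group means of log2(CPM + 0.5) and two-sided permutation tests with 100000 shuffles within groups. Where the 2 farthest mice were left out, the group means were not computed again.

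Members are described in every comparison between groups, and in the interaction where they exceeded their SE. From each list up to 4 called genes with the largest change per comparison are named, and Lifr, Socs5, Igfbp7 and, on Western diet, Insr and Cyp2b9 were added after their values were seen. Members, lists and rules were chosen with earlier results of these data known. Alternatives were the edgeR quasi-likelihood test, DESeq2 1.42.0, no sample weights, library size only, 2 filters, only the groups compared, a replicate block, 2 surrogate variables (sva 3.50.0), a clock-gene score as covariate and leaving out each library. The fit was tested on simulated counts. Replicate numbers come from titles and are given to different mice. No library was a copy of another (smallest chi-square per degree of freedom 15.6).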

Additional observations from a re-analysis of the deposited data

Results flagged for a closer look

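Of 40 sets of values tested (10 members in the 4 groups of 5 or 6 mice), 5 held a mouse whose gap to the nearest other exceeded the 95% critical value of Dixon's test, and chance alone gives about 1 in 20. WD WT EV replicate 8 had the highest Cish (25.9 CPM, the others up to 5.54) and the highest Socs3 (24.4 CPM, the others up to 10.2). In WD LKO NAMPT, replicate 1 had the highest Igfbp3, at 36.1 CPM, and replicate 4 the highest Socs3, at 15.8 CPM. In WD WT NAMPT, replicate 6 had the highest Igfals, at 99.1 CPM. The group of 3 chow mice was too small for this test.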

How the results depend on the processing

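The number of members called between diets was 4 in the report, 5 with the replicate block, where Ghr was called too (-0.43, adjusted p 0.0432), 1 with the edgeR quasi-likelihood test and without sample weights, 2 with DESeq2, and 0 to 4 when 1 library was left out. For NAMPT in WT it was 0, but 1 with DESeq2 (Stat5b) and with the clock score (Ghr), and 0 to 2 with 1 library left out. In LKO NAMPT against WT NAMPT it was 0 to 1 with 1 library left out. The replicate block left it at 0 in the other 5 comparisons. Same-numbered mice of a pair of groups did not deviate together (mean correlation from -0.01 to 0.12), so the numbers do not pair the samples.

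Of 60 log2 fold changes of members, 29 exceeded their SE, and signs turned in 8 of their 646 recomputed values. Of the other 31, 28 changed sign in at least 1 alternative. With 2 surrogate variables Ghr became 0.07 and Igfbp3 -0.0021 for NAMPT in WT, Ghr -0.02 in LKO NAMPT against WT NAMPT, and Ghr 0.06 between diets. With the replicate block Ghr became 0.03 in LKO EV against WT EV. Between diets, fits without 1 chow library gave Cish -0.03 to 1.97 and Bcl6 -1.32 to 0.52. Without chow replicate 1 Cish was -0.03 and Bcl6 0.39, and without replicate 2 Bcl6 was 0.52. With library size only, r of Bcl6 became -0.09 with Igfals and -0.03 with Stat5b. The cause of these changes was not tested.

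The number of all genes called for NAMPT in WT was 1890 in the report and 70 (2 surrogate variables) to 2602 (clock score) otherwise, in LKO NAMPT against WT NAMPT 1120 and 13 (only the groups compared) to 1588 (clock score), and between diets 3101 and 1201 (no sample weights) to 3842 (replicate block). With 1 library left out these ran from 132 to 2844, from 0 to 2290 and from 834 to 3175. For the interaction 1 gene became 66 with the block, 415 with the clock score and up to 677 without LKO NAMPT replicate 1. Each comparison of 3 to 6 mice left changes in Bcl6 and Cish of about the size of their within-group spread undetectable.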
